A study of Mus musculus with 29 samples.

Results

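The genes described here are 9 acetylcholine receptor genes: the nicotinic alpha subunit genes *Chrna3*, *Chrna4*, *Chrna5*, *Chrna6* and *Chrna7*, the nicotinic beta subunit genes *Chrnb2*, *Chrnb3* and *Chrnb4*, and the muscarinic receptor gene *Chrm1*. They were grouped by gene family, and together they have 20 probe sets among the 18194 genes with a value. They were measured in 29 single retinal ganglion cells (RGCs) from the adult retina of C57BL/6 mice (C57BL/6J in the study's methods). The light responses of each cell were recorded first. The cell was then aspirated, its cDNA was amplified by PCR, and that library was hybridized to 1 Affymetrix mouse genome array per cell.

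Nicotinic receptors are cation channels that open when acetylcholine binds, and each channel is built from several subunits. Alpha and beta subunits join in most neuronal receptors, the alpha7 subunit can form a channel on its own, and alpha5 and beta3 act as accessory subunits. Muscarinic receptors act through G proteins, and the M1 receptor encoded by *Chrm1* couples to Gq. In the retina, acetylcholine is made by starburst amacrine cells, which contact direction-selective RGCs.

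All cells were untreated RGCs of the same strain, and they differed in the subtype given by their light responses. There were 4 ON direction-selective (ON DS) and 4 ON-OFF DS cells, 1 cell selective for vertical (ON vOS) and 1 for horizontal orientation (ON hOS), 2 ON alpha cells, 4 sustained (OFF S) alpha and 3 transient (OFF T) alpha cells. The other 10 cells were 2 suppressed by contrast (SbC) cells and 1 cell each labelled PixON, local edge detector (LED), J-RGC, OFF high speed selective, ON S non-alpha, Eyewire 4i, Eyewire 6sn and Eyewire 6sw. Of the 16 subtypes, 10 thus had 1 cell. Each cell is named by its subtype and a number from 1 to 29. Since no source used here names the animals, cells may share one, and no test between subtypes was made.

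Signals are MAS5 intensities on a linear scale, with a 2% trimmed mean of 1500 on the arrays. The threshold for detection was 3000, or 2 times that mean, and signals under 375 were raised to this floor before logs were taken (8.55 on the log2 scale). Where a gene had several probe sets, the one with the highest mean log2 signal was used, called its main probe set. Between 1182 and 4201 genes were detected per cell (median 2908), which stands for the depth of a library. Every cell had 5 to 13 of the 13 RGC markers with a value. RNA of rods was also present, since 18 cells had at least 5 of 10 rod genes. Each cell had 0 to 6 of 8 Müller glia markers, 0 to 4 of 7 amacrine markers and 0 to 3 of 6 bipolar markers. Of the glia markers, *Clu* was detected in 27 cells, *Dkk3* in 21, *Glul* and *Rlbp1* in 11 each and *Vim* in 10. *Slc1a3* and *Aqp4* were detected in 1 cell each and *Apoe* in 0. Of the amacrine markers, *Calb2* was detected in 24 cells, *Slc6a9* in 8, *Gad1* and *Slc32a1* in 4 each and *Gad2* in 2. *Tfap2a* and *Tfap2b* were in 0. How many cells held RNA of glia or amacrine cells was not tested. The 5 markers of starburst amacrine cells, among them the choline acetyltransferase gene *Chat*, were detected in 0 of the 29 cells.

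*Chrna6* and *Chrnb2* were the widespread receptor genes, *Chrna7*, *Chrna3*, *Chrna4* and *Chrna5* were found in 1 to 6 cells each, *Chrnb3* and *Chrnb4* were found in none (with quantile normalization, *Chrnb4* was detected in ON vOS 9), and *Chrm1* was found in the 3 OFF T alpha cells alone. *Chrna6* was detected in 23 of 29 cells (79.3%, exact Clopper-Pearson interval 60.3% to 92.0%) and *Chrnb2* in 19 (65.5%, 45.7% to 82.1%). Among all genes, 3.66% were detected in at least 23 cells and 6.56% in at least 19 cells. *Chrna7* was detected in 6 cells (20.7%, 7.99% to 39.7%), *Chrna3* in 4 (13.8%, 3.89% to 31.7%), *Chrna4* and *Chrm1* in 3 each (10.3%, 2.19% to 27.4%) and *Chrna5* in 1 (3.45%, 0.0873% to 17.8%). For *Chrnb3* and *Chrnb4*, 0 of 29 cells allows a share of up to 11.9%, and 45.0% of all genes were likewise detected in no cell. These intervals cover counting error only.

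**Figure D1:**
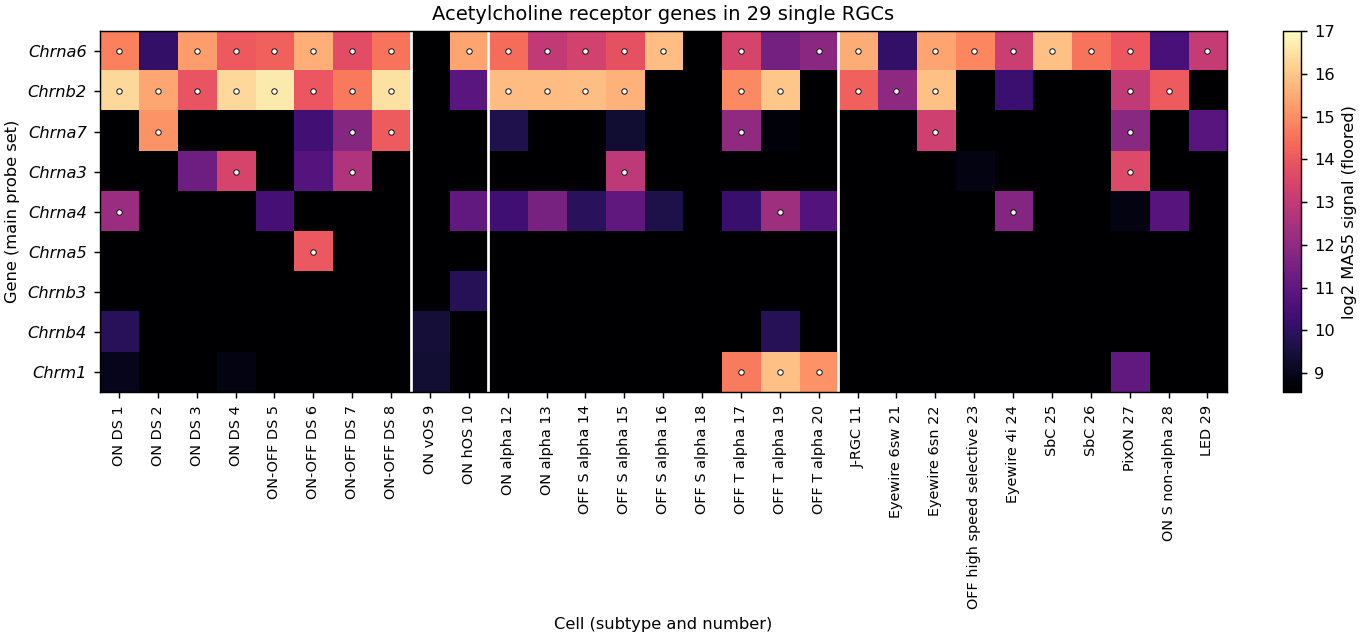
Log2 MAS5 signal (floored at 8.55) of the main probe set of each receptor gene (rows) in each of the 29 cells (columns), with a white dot where the gene was detected and white lines between DS, OS, alpha and other cells. *Chrna6* has 23 dots and *Chrnb2* 19, and the 3 dots of *Chrm1* are those of the OFF T alpha cells.

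*Chrna6* encodes the alpha6 subunit, a ligand-binding subunit that is known from RGCs and from dopamine neurons of the midbrain. Its signal was 27984, 1091, 39222 and 17105 in ON DS cells 1 to 4 and 18644, 48085, 13786 and 23700 in ON-OFF DS cells 5 to 8. All DS cells but ON DS 2 were therefore above the threshold, and the ranges of both DS subtypes overlapped. With quantile normalization ON DS 2 was detected too. In the alpha cells it was 21604 and 8242 in ON alpha 12 and 13, and 10456, 14888, 59655 and 4 in OFF S alpha 14, 15, 16 and 18. The OFF T alpha cells 17, 19 and 20 had 11153, 2753 and 3825, so that their median of 3825 was the lowest among the 6 subtypes with several cells, and 1 of these cells fell just below the threshold. Each of these 6 subtypes overlapped in range with the next in the order of medians, from SbC (42540) through ON DS (22545), ON-OFF DS (21172), ON alpha (14923) and OFF S alpha (12672) to OFF T alpha.

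In the subtypes with 1 cell, which have no spread of their own, the *Chrna6* signal ran from 35 to 47024. It was 47024 in J-RGC 11, 43452 in Eyewire 6sn 22, 43417 in ON hOS 10 and 29807 in OFF high speed selective 23. PixON 27 had 16195, Eyewire 4i 24 had 9569 and LED 29 had 8712, while ON S non-alpha 28 (1446), Eyewire 6sw 21 (1085) and ON vOS 9 (35) were below the threshold. The 2 SbC cells were at 61180 and 23900, the first being the highest of all 29 cells. Of the 6 cells without *Chrna6*, 5 had at least 5 rod genes, as did 13 of the 23 cells with it. The median number of detected genes was 2519 in cells without *Chrna6* and 2908 in cells with it, and the part of rod RNA and depth in the missing signals was not tested.

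*Chrnb2* encodes the beta2 subunit, the common partner of alpha subunits in brain nicotinic receptors. Its signal was 82658, 44432, 15348 and 81470 in the ON DS cells and 104085, 16236, 25248 and 91406 in the ON-OFF DS cells. All 8 DS cells were thus detected. In ON alpha cells it was 58412 and 57564, in OFF S alpha cells 60061, 51075, 306 and 236, and in OFF T alpha cells 31534, 65162 and 22. The alpha cells fell into 6 with a high signal and 3 near background, a split that ran through both OFF alpha subtypes. The 3 were OFF S alpha 16 and 18 and OFF T alpha 20. They had 9, 10 and 1 rod genes and 1672, 2012 and 2596 detected genes, and the part of rod RNA and depth was not tested. With quantile normalization *Chrnb2* was detected in OFF S alpha 16, while the count stayed at 19 of 29 cells. The 2 SbC cells (105 and 53) and the 2 OS cells (354 in ON vOS 9 and 1886 in ON hOS 10) were below the threshold. Among the single-cell subtypes it was 60637 in Eyewire 6sn 22, 18410 in J-RGC 11, 17117 in ON S non-alpha 28, 8093 in PixON 27 and 4008 in Eyewire 6sw 21. Eyewire 4i 24 (1206), LED 29 (282) and OFF high speed selective 23 (97) lacked it. Among subtypes with several cells, SbC had the lowest median (79). SbC 25 and 26 had 9 and 10 of 10 rod genes, 2286 and 1182 detected genes, and 10 and 5 of 13 RGC markers. The part of rod RNA and depth in their missing *Chrnb2* signal was not tested.

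The 10 cells without *Chrnb2* had a median of 2154.5 detected genes against 3104 in the 19 cells with it, and 8 of the 10 had at least 5 rod genes against 10 of the 19. Over the 29 cells, the log2 signal of *Chrnb2* had r = 0.51 (Spearman rho 0.44) with the number of detected genes and r = -0.48 (rho -0.46) with the mean rod signal (log2, over 10 rod genes). For *Chrna6* these values were 0.00 (rho -0.16) and -0.28 (rho -0.28). The points share the depth of each library, so these correlations are descriptions. Among the 11 cells with fewer than 5 rod genes, *Chrna6* was detected in 10 and *Chrnb2* in 9.

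**Figure D2:**
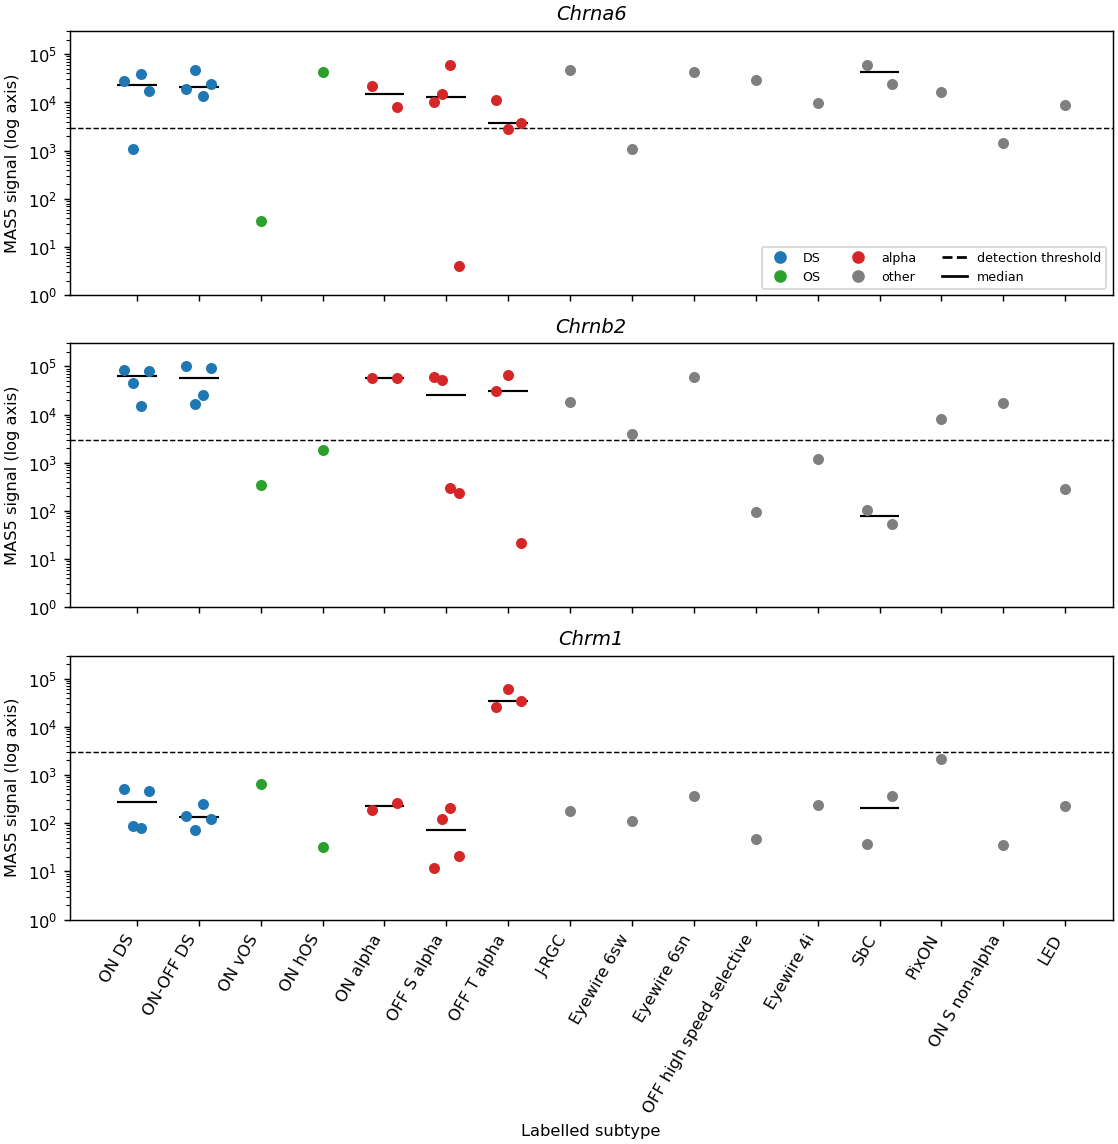
MAS5 signal (log axis) of *Chrna6*, *Chrnb2* and *Chrm1* by labelled subtype, with 1 point per cell colored by class, a bar at the median of subtypes with several cells and a dashed line at the detection threshold of 3000. *Chrna6* and *Chrnb2* each spread over several orders of magnitude within OFF S alpha, whereas *Chrm1* lies above the line in the 3 OFF T alpha cells (26272 to 61413) and below it in the others.

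*Chrna7* encodes the alpha7 subunit, which forms channels of high calcium permeability. The 6 cells with it were ON DS 2 (35506), ON-OFF DS 8 (17326), Eyewire 6sn 22 (9910), OFF T alpha 17 (4073), PixON 27 (3763) and ON-OFF DS 7 (3587). Only 1 of them was an alpha cell, and the next highest signals, below the threshold, were 1835 in LED 29 and 1337 in ON-OFF DS 6. ON DS 2, the cell with the highest *Chrna7* signal, was the DS cell without *Chrna6*, and the other 3 ON DS cells had *Chrna7* signals of 14, 4 and 197. With quantile normalization, however, *Chrna6* was detected in ON DS 2, a cell with 1842 detected genes and 0 rod genes. *Chrna7* was detected in 2 of the 18 cells with at least 5 rod genes and in 4 of the 11 others (36.4%). At a threshold of 6000 or with quantile normalization, 3 of the 29 cells had it (10.3%). The second *Chrna7* probe set was detected in 0 of 29 cells, and it read 102 in ON DS 2 and 10 in ON-OFF DS 8.

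*Chrna3*, *Chrna5* and *Chrnb4* lie next to each other in the GRCm38.p6 annotation, with no protein-coding gene between them, and *Chrna5* and *Chrna3* overlap. The label was added to double-stranded cDNA fragments, so overlapping transcripts may not be told apart by strand. *Chrna3*, the alpha3 subunit of ganglionic receptors in the autonomic nervous system, was detected in PixON 27 (12502), ON DS 4 (11333), OFF S alpha 15 (7741) and ON-OFF DS 7 (6474). Just below the threshold were ON DS 3 (2512) and ON-OFF DS 6 (1743). These cells belonged to 4 subtypes, and in each of those subtypes with several cells the other cells were below the threshold. *Chrna5*, an accessory subunit, was detected in ON-OFF DS 6 (16592), a cell whose *Chrna3* signal was below the threshold, and its highest signal elsewhere was 216. The second *Chrna5* probe set read 50 in that cell and was detected in 0 of 29 cells, so this call rests on 1 probe set. *Chrnb4*, the usual beta partner of alpha3 in autonomic ganglia, reached 940 at most, in ON DS 1. No cell therefore had more than 1 of these 3 genes, but at a threshold of 1500 ON-OFF DS 6 had both *Chrna3* and *Chrna5*.

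*Chrna4* encodes the alpha4 subunit, which with beta2 forms the main high-affinity nicotine receptor of the brain. It was detected in OFF T alpha 19 (5060), ON DS 1 (4839) and Eyewire 4i 24 (3474). Its signals did not separate from those just below the threshold, which were 2935 in ON alpha 13, 2111 in ON hOS 10 and 2048 in OFF S alpha 15. All 3 cells with it had at least 7 rod genes. A different probe set of *Chrna4* was detected in OFF T alpha 20 (21698) and ON alpha 13 (5535), in neither of which the main probe set was. *Chrnb3*, the gene beside *Chrna6*, encodes an accessory subunit often found in receptors with alpha6. It had 1 probe set, with signals from 3 to 932, so 0 of the 23 cells with *Chrna6* had it detected.

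Probe sets of 1 gene differed in how many cells they called. The second probe set of *Chrna6* was detected in 5 cells, all of them detected at the main one (ON DS 4, 15347; ON-OFF DS 7, 6116; OFF S alpha 16, 3181; ON DS 1, 3041; PixON 27, 3006), and its log2 signals had r = 0.23 with the main one. A second probe set of *Chrna3* was detected in 2 of the 4 *Chrna3* cells, ON-OFF DS 7 (8261) and ON DS 4 (3655), with r = 0.63. For *Chrnb2*, another probe set was detected in LED 29 alone (3997), a cell without signal at the main one. Counting any probe set changed the detected genes of 3 cells: ON alpha 13 and OFF T alpha 20 gained *Chrna4*, and LED 29 gained *Chrnb2*.

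Receptor subunit genes were then combined cell by cell. The number of nicotinic subunit genes detected in a cell ranged from 0 to 4 with a median of 2. There were 2 cells with none, 9 with 1, 9 with 2, 7 with 3 and 2 with 4. The median was 3 in DS cells (range 2 to 4), 2 in alpha cells (0 to 3), 1 in the other 10 cells (1 to 4), and 0.5 in the 2 OS cells. This number had r = 0.47 (rho 0.49) with the number of detected genes per cell and r = -0.43 (rho -0.49) with the mean rod signal. DS cells had at least 5 rod genes in 3 of 8 cells and the other cells in 8 of 10, and the part of rod RNA in this order was not tested.

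The most frequent set was *Chrna6* alone, in 7 cells: ON hOS 10, OFF S alpha 16, OFF T alpha 20, OFF high speed selective 23, both SbC cells and LED 29. *Chrna6* with *Chrnb2*, an alpha and a beta subunit gene that can form a receptor together, was the whole set in 6 cells, ON DS 3, ON-OFF DS 5, J-RGC 11, ON alpha 12 and 13 and OFF S alpha 14. *Chrna7* was added to this pair in 3 cells (ON-OFF DS 8, OFF T alpha 17 and Eyewire 6sn 22) and *Chrna3* in 2 (ON DS 4 and OFF S alpha 15). All 4 genes were detected in ON-OFF DS 7 and PixON 27. *Chrnb2* was the only nicotinic gene in Eyewire 6sw 21 and ON S non-alpha 28. These cells had 10 of 10 rod genes and 3 bipolar markers each, with 5 and 7 of 13 RGC markers. The 5 remaining sets had 1 cell each. They were *Chrna4* with *Chrna6* in Eyewire 4i 24, *Chrna4* with *Chrnb2* in OFF T alpha 19, *Chrna4* with both in ON DS 1, *Chrna5* with both in ON-OFF DS 6, and *Chrna7* with *Chrnb2* in ON DS 2. ON vOS 9 and OFF S alpha 18 had none of the 8 nicotinic genes. Both had 10 of 10 rod genes, with 2023 and 2012 genes detected. Some sets changed with quantile normalization. ON DS 2 gained *Chrna6*, OFF S alpha 16 gained *Chrna4* and *Chrnb2*, ON hOS 10 gained *Chrna4* and ON vOS 9 gained *Chrnb4*. Which cells lost a gene under this setting is not given here.

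**Figure D3:**
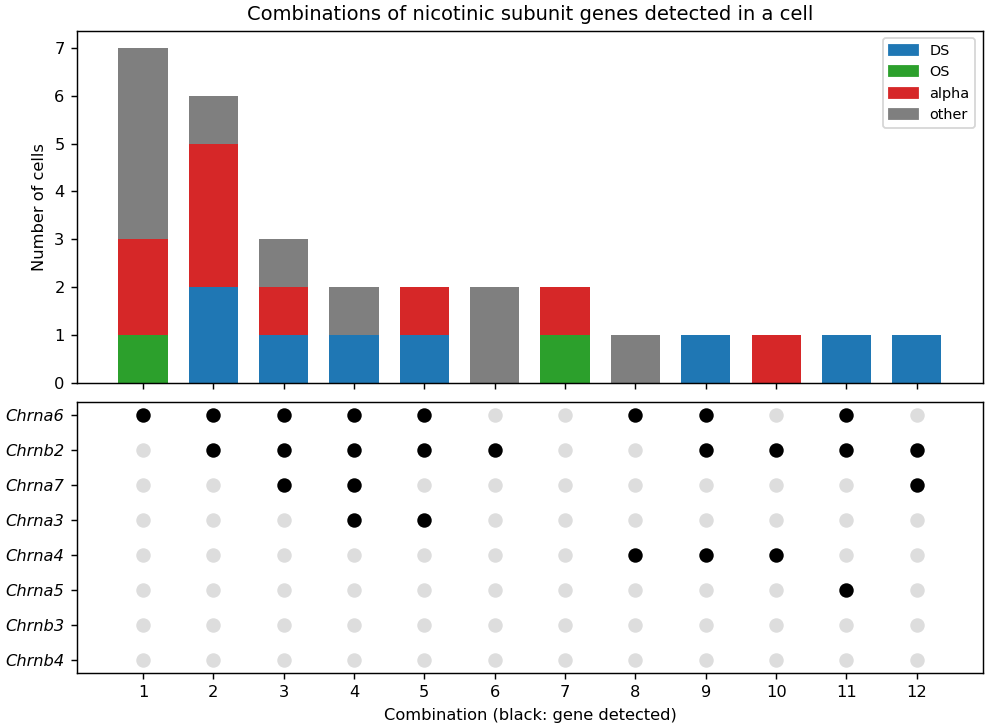
Number of cells (top, stacked by class) with each combination of nicotinic subunit genes detected at the main probe sets (bottom, black for a detected gene). The first 2 combinations, *Chrna6* alone and *Chrna6* with *Chrnb2*, hold 7 and 6 of the 29 cells, and the 8 DS cells lie in combinations that include *Chrnb2*.

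*Chrna6* and *Chrnb2* were both detected in 15 cells, *Chrna6* without *Chrnb2* in 8, *Chrnb2* without *Chrna6* in 4 and neither in 2. *Chrnb2* was therefore found in 65.2% of the cells with *Chrna6* and in 66.7% of those without, and the log2 signals had r = 0.15 (rho 0.03). All 6 *Chrna7* cells and all 4 *Chrna3* cells had *Chrnb2*, which was found in 56.5% of the cells without *Chrna7* and 60% of those without *Chrna3*. The *Chrna5* cell also had *Chrnb2*, against 64.3% of the cells without *Chrna5*. Of the 3 *Chrna4* cells 2 had it, near the 65.4% of the cells without *Chrna4*. *Chrna6* was present in 4 of 4 *Chrna3* cells and in 76% of the cells without *Chrna3*. It was also in 5 of 6 *Chrna7* cells, while 18 cells had *Chrna6* without *Chrna7* and 5 had neither. In turn, *Chrna7* was found in 31.6% and *Chrna3* in 21.1% of the 19 *Chrnb2* cells.

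Differences between classes were described by medians of log2 signals, with a difference of 2 or more (4-fold) as the size for a call, over the 7113 genes detected in at least 3 cells. Of the 9 receptor genes, 6 passed that filter, and *Chrna5*, *Chrnb3* and *Chrnb4* did not. Between DS and alpha cells, 0 of 6 receptor genes and 18.7% of all genes were called. The median *Chrna6* signal was 21172 in DS and 10456 in alpha cells, a difference of 1.01. *Chrna4* had medians of 48 and 1310 and a difference of -1.80 from alpha cells. The 6 genes had a median difference of 0.58, beside 0 for all genes tested. A gene with both class medians at the floor has a difference of 0. How many genes were of this kind is not given here, so no shift of the receptor genes is read from these values. Between ON alpha and OFF alpha cells, 0 of 6 receptor genes and 34.2% of all genes were called, with a median difference of 0.46 for the receptor genes and 0.42 for all genes.

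Between ON-OFF DS and ON DS cells, 1 of 6 receptor genes and 29.2% of all genes were called. The gene was *Chrna7*, with signals of 260, 1337, 3587 and 17326 in ON-OFF DS and 14, 35506, 4 and 197 in ON DS cells. The ranges overlapped through ON DS 2, and the difference of medians was 2.55. Leaving out the cells rich in rod RNA (at least 5 rod genes), the order turned and the difference was -1.45, and without ON-OFF DS 7 or ON-OFF DS 8 it was 1.83, below the size for a call. For *Chrna6* and *Chrnb2* the 2 DS subtypes differed by -0.06 and -0.32.

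Between OFF T alpha and OFF S alpha cells, 2 of 6 receptor genes and 33.8% of all genes were called. Rod RNA differed along with the subtype: OFF S alpha 14, 15, 16 and 18 had 10, 6, 9 and 10 rod genes, and OFF T alpha 17, 19 and 20 had 1, 7 and 1. Rod RNA and subtype cannot be told apart here, since 0 OFF S alpha cells had fewer than 5 rod genes. *Chrnb2* differed by 2.85, but it was detected in 2 of 3 and 2 of 4 cells and the ranges overlapped. This difference was -0.70 without OFF S alpha 16 or without OFF S alpha 18, and -0.35 without OFF T alpha 19. The other gene was *Chrm1*, with a difference of 6.53 and signals of 26272 to 61413 in OFF T alpha and 12 to 204 in OFF S alpha cells. How many of all genes also had ranges without overlap in this comparison is not given here. The fold of *Chrm1* is limited by the floor, at which all 4 OFF S alpha cells lay.

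*Chrm1* had signals of 26272, 61413 and 34679 in OFF T alpha 17, 19 and 20, and of 12 to 2099 in the other 26 cells. The highest of the others was PixON 27, followed by ON vOS 9 (663) and ON DS 1 (512). The ON alpha cells had 184 and 263 and the OFF S alpha cells 12, 122, 204 and 21, so the other alpha cells were at background. A second *Chrm1* probe set stayed below the threshold in every cell. It gave 1177 and 1143 in OFF T alpha 17 and 19, but 65 in OFF T alpha 20, and at most 136, in ON DS 1, in the other 26 cells. Its log2 signals had r = 0.79 with those of the main probe set.

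Of all 18194 genes, 4 were detected in all 3 OFF T alpha cells and in no other cell, which is 0.0220%. Besides *Chrm1* they were *Gal*, *Agtr2* and *Ngfr*. *Gal*, which encodes the neuropeptide galanin, had signals of 39387 to 123210 in OFF T alpha cells and at most 316 elsewhere. *Agtr2*, the angiotensin II type 2 receptor gene, had 4015 at the lowest of the 3 cells and 298 at most elsewhere, and *Ngfr*, the p75 neurotrophin receptor gene, 19988 and 2926. By the gap between the lowest OFF T alpha cell and the highest other cell on the log2 scale, *Gal* (6.71) came first, then *Chrm1* (3.65), *Agtr2* (3.42) and *Ngfr* (2.77). The other 3 genes were picked by this pattern. OFF T alpha 19 had 7 of 10 rod genes and OFF T alpha 17 and 20 had 1 each. Leaving out all 18 cells rich in rod RNA, *Chrm1* was still detected in the 2 remaining OFF T alpha cells and in 0 of 9 others, a pattern then shared by 39 genes (0.214%). None of these 9 was an OFF S alpha cell. At a threshold of 1500, PixON 27 also passed for *Chrm1*. With quantile normalization ON vOS 9 did, at 3215 against 34506 to 66237 in the OFF T alpha cells.

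**Figure D4:**
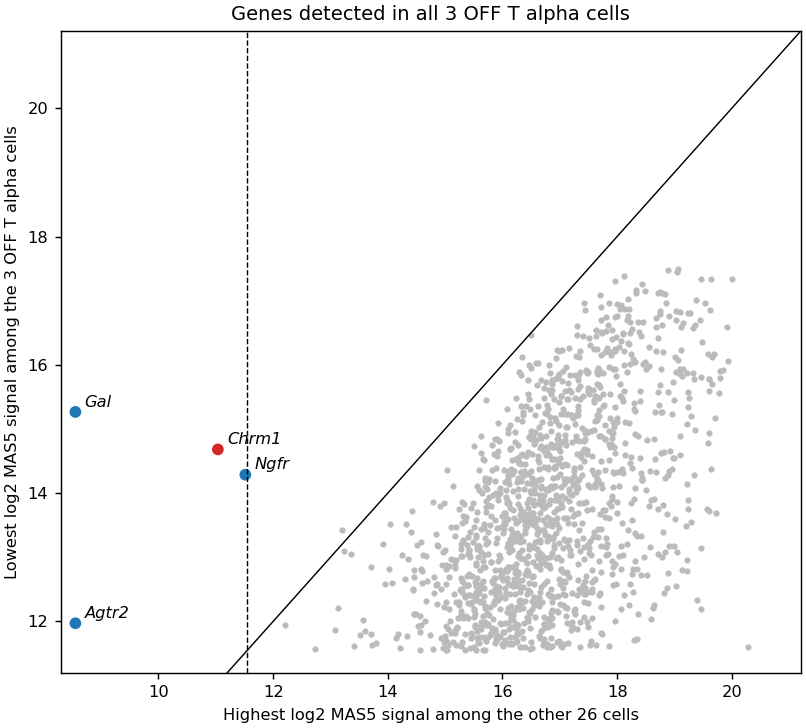
For the 1407 genes detected in all 3 OFF T alpha cells, the lowest log2 MAS5 signal in those 3 cells is plotted against the highest floored log2 signal in the other 26 cells, with a line of equality and a dashed line at the detection threshold. *Gal*, *Chrm1*, *Agtr2* and *Ngfr* lie left of the dashed line, and 1 of the other genes lies above the line of equality.

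The same cells set the genes most like *Chrm1* over the 29 cells. *Gal* (r = 0.97), *Agtr2* (0.94) and *Ngfr* (0.93) led, followed by *Gm2115* and *Fam110b* (0.80 each), which were detected in 5 and 4 cells. Spearman rho was lower, from 0.13 to 0.42, and most cells were at background for these genes. Among the nicotinic genes the OFF T alpha cells were mixed. OFF T alpha 17 had *Chrna6*, *Chrna7* and *Chrnb2*, OFF T alpha 19 had *Chrna4* and *Chrnb2*, and OFF T alpha 20 had *Chrna6*, with *Chrna4* at a different probe set.

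For the nicotinic genes, the patterns most alike were also ranked, each among the other 7112 genes detected in at least 3 cells. *Chrna6* was closest to *Septin3*, which encodes a neuronal septin (r = 0.78, rho 0.60), then to *Rtn3* (0.75), *Bend6* (0.70), *Atp2b2*, a calcium pump gene of the plasma membrane (0.69), and *Syn1*, the synapsin I gene (0.67). *Bend6* was detected in 15 cells, all of them with *Chrna6*. *Chrnb2* was closest to *Pdxp* (0.74), *Ccdc136* (0.71), *Cdc42bpa* (0.69), *Lypd6* and *Eif3c* (0.68 each). *Cdc42bpa*, a kinase gene, was detected in 10 cells, all with *Chrnb2*. For *Chrna7* the first 2 were *B230217C12Rik* (0.87) and *Med21* (0.82), then *Tmem191c*, *Lnx1* and *Rab23* (0.71 to 0.72). Without the 2 cells farthest from the median, r was 0.22 for *Tmem191c* (rho 0.21 in all cells), 0.22 for *Rab23* (rho 0.21) and 0.51 for *Lnx1* (rho 0.37). *Chrna3* was led by *Trim13* (0.76), *Harbi1* (0.74), *Phf20* (0.71), *Thap12* and *Mmp9* (0.66 each), and *Chrna4* by *Cep68* (0.72), *Pstk* (0.70), *Meaf6* (0.69), *Pygb* (0.68) and *Ckb* (0.67). The lists of *Chrna3*, *Chrna4* and *Chrna7* rest on 3 to 6 cells with the gene. No receptor gene was among the 5 closest of another. Ranked by r with *Chrnb2*, *Chrna7* was at place 816 and *Chrna6* at place 2971.

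*Lypd6* stood out among these genes because it also belongs to the list of nicotinic modulators, where it encodes a membrane-anchored protein of the Ly6 family. It was detected in 20 cells, 18 of them with *Chrnb2*. A single cell had *Chrnb2* without it (OFF S alpha 14, with a *Lypd6* signal of 949), 2 cells had *Lypd6* alone (OFF T alpha 20 at 8858 and LED 29 at 19423), and 8 had neither. In the DS cells *Lypd6* ran from 3158 to 43786, and all 8 were above the threshold. In the 2 OS cells (384 and 5) and 2 SbC cells (68 and 108), which had no *Chrnb2*, it was at background. The correlation of 0.68 (rho 0.51) was 0.57 given the number of detected genes, 0.47 in the 11 cells with fewer than 5 rod genes and 0.40 on linear signals. Both other *Lypd6* probe sets, detected in 6 cells and 1 cell, had r = 0.11 with *Chrnb2*.

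**Figure D5:**
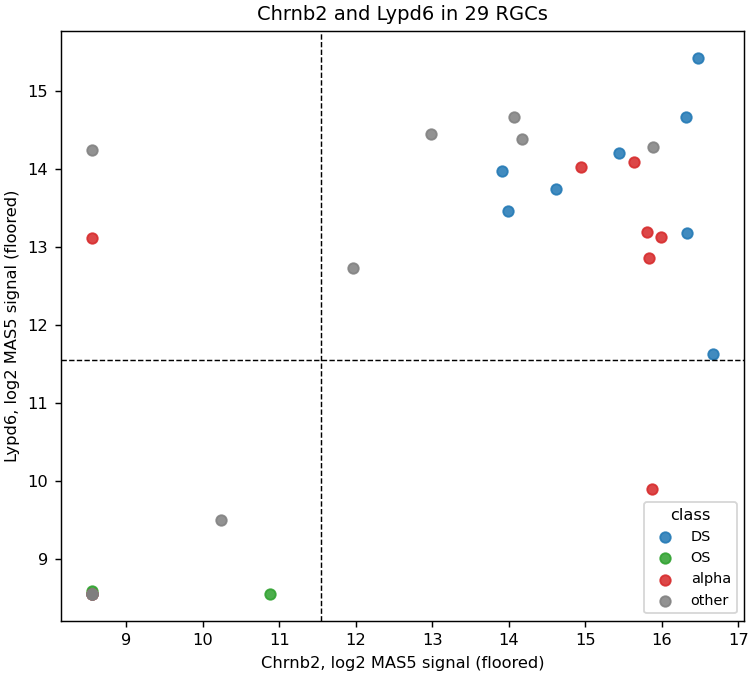
Log2 MAS5 signals (floored at 8.55) of *Chrnb2* and *Lypd6* in the 29 cells, colored by class, with dashed lines at the detection threshold. The upper right part holds 18 cells, including the 8 DS cells, and the lower left part 8 cells, several of which share the point where both genes are at the floor.

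The other genes of acetylcholine signalling came from lists by function. Of 8 other nicotinic subunit genes, 7 had a value (*Chrna10* did not) and 0 of these 7 were detected in any cell. Among all genes, 45.0% were detected in no cell. The highest signal among them was 653, for *Chrna9* in ON vOS 9. The muscarinic genes *Chrm3* and *Chrm4* were also below the threshold everywhere, at 349 and 344 at most. *Chrm2* and *Chrm5* had no value, so among the 3 muscarinic genes with a value *Chrm1* alone was detected.

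Of 5 genes for making, moving and breaking down acetylcholine, 1 was detected, where 45.0% of all genes were detected in no cell. The detected gene was *Ache*, the acetylcholinesterase gene, in 22 cells (median signal 29899). Among them were all 8 DS cells, 7 of 9 alpha cells, 1 of the 2 OS cells and 6 of the other 10. It was found in all 3 *Chrm1* cells, with its highest signal of 111179 in OFF T alpha 19, in 19 of the 23 *Chrna6* cells and in 17 of the 19 *Chrnb2* cells. *Chat*, the choline transporter gene *Slc5a7*, the vesicular transporter gene *Slc18a3* and the butyrylcholinesterase gene *Bche* were at 345 or below.

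Of 8 chaperones and modulators of nicotinic receptors, 6 were detected in at least 3 cells, beside 7113 of all 18194 genes. *Lynx1*, a brake on nicotinic receptors, was detected in 27 cells, among them all 19 *Chrnb2* cells, and its median signal was 99908. *Tmem35a*, which encodes the receptor chaperone NACHO, was detected in 19 cells, 13 of them with *Chrnb2*, 16 with *Chrna6* and 3 with *Chrm1*. *Ly6e* was found in 13 cells, *Lypd6b* in 10 and *Ly6h* in 3. All 10 *Lypd6b* cells had *Chrna6*, which was detected in 23 of the 29 cells. *Ric3*, a chaperone known for alpha7, was detected in 1 cell, ON-OFF DS 6 (4887), which did not have *Chrna7*, and *Lypd1* in 0 cells.

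Of 9 genes of the Gq pathway and its targets below the M1 receptor, 7 had a value. *Plcb4*, a phospholipase C gene, was detected in 24 cells and *Rgs4*, a regulator of G protein signalling, in 22. The potassium channel gene *Kcnq3*, whose channel is closed by muscarinic signalling in other neurons, was detected in 12 cells, 7 of them DS cells and none with *Chrm1*. The Gq alpha subunit gene *Gnaq* was detected in 9 cells, 2 of them *Chrm1* cells, *Plcb1* in 8, *Gna11* in 7 and *Prkca* in 5. In the 3 *Chrm1* cells, *Rgs4* was thus detected in 3, *Plcb4* in 2, *Gnaq* in 2, and *Gna11*, *Plcb1*, *Prkca* and *Kcnq3* in 0.

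Genes beside the *Chrna5*, *Chrna3* and *Chrnb4* cluster were read as a further comparison. *Psma4*, a proteasome subunit gene, was detected in 20 cells, with 3 of 8 DS and 7 of 9 alpha cells among them. *Hykk* was detected in J-RGC 11 alone (15760), and *Ireb2* in 0 cells.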

How the data were processed

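Single-cell cDNA libraries of 29 RGCs were made by the authors with an oligo-dT primer and 35 cycles of PCR and were hybridized to 1 array each. The deposited intensity values are linear MAS5 signals, which the authors computed (no source used here gives the version). The 2% trimmed mean was 1500 on each array (1500.1 at the highest), and signals ran from 0.14 to 2096650. MAS5 detection calls were not used here. Amplification can lose rare transcripts, so a signal below the threshold does not show that a gene is not expressed. Precision is limited by the number of arrays. No strand information was kept.

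Of 45101 probe sets, 932 named several genes and 9211 none, and without both kinds there were 34958, for 18194 genes. Symbols were updated through RefSeq. The positions of genes relative to each other came from RefSeq's GRCm38.p6 annotation. Groups came from the sample labels. The members, gene lists and rules were chosen with earlier results of these data known. Genes named are the 9 receptor genes, listed acetylcholine genes detected in at least 3 cells, and the 5 highest correlates of each member detected in 3 to 26 cells. Genes in fewer cells, the 3 genes that share the *Chrm1* pattern and the neighbours of the gene cluster were named after their values were seen.

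Detection, the floor, the main probe set and called differences were as given above. Clopper-Pearson intervals (exact, 95%) were given for shares of cells. No test or standard error was computed between groups. The alternatives were thresholds of 1500 and 6000, a floor of 1500 or none (values under 3 set to 3), any or all probe sets, quantile normalization, Spearman rho, linear signals, a partial correlation, and leaving out each cell, the 2 cells farthest from the median, the 1 cell whose number of detected genes was under 50% of the median, or the 18 cells with at least 5 rod genes. Settings for the genes found in OFF T alpha cells alone were added after seeing the data. On simulated data of 5000 genes with the same groups, 30 of 30 planted correlates and 30 of 30 planted group genes were recovered. The planted signals were strong, with group shifts above the size for a call and little noise. Cells were shuffled within each gene, which removes shared depth and rod RNA. Recovery therefore checks the computation alone and does not measure how well such genes are found in the real data. The tools were pandas 2.3.3, scipy 1.17.1 and numpy 2.4.6 under Python 3.11.15, with matplotlib 3.10.9 for figures.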

Additional observations from a re-analysis of the deposited data

Results flagged for a closer look

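In subtypes with 4 cells, the 9 receptor genes gave 18 pairs of gene and subtype whose signals varied above the floor, and in 7 of them 1 cell stood far from the other 3, which were all at or below the floor. Chance flags about 1 in 20 such groups, but a gene with 1 cell above the floor is flagged in every case. In 4 of the 7 the cell was above the detection threshold: *Chrna7* in ON DS 2 (35506), *Chrna5* in ON-OFF DS 6 (16592), *Chrna3* in OFF S alpha 15 (7741) and *Chrna4* in ON DS 1 (4839). In the other 3 it was below the threshold: *Chrna4* in ON-OFF DS 5 (1399), *Chrnb4* in ON DS 1 (940) and *Chrna7* in OFF S alpha 15 (649).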

How the results depend on the processing

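The share of cells with *Chrna4* rested on signals close to the threshold. It was 27.6% at a threshold of 1500, and 0 at a threshold of 6000 or when the 18 cells rich in rod RNA (at least 5 rod genes) were left out. Without those cells, the share with both *Chrna6* and *Chrnb2* was 72.7% against 51.7% in all cells. The share with *Chrna5* ran from 0 to 3.57% when each cell was left out. All remaining shares under other settings stayed within the interval of the main value, though some moved by 1.5 times or more. *Chrna7* went from 20.7% to 10.3% at a threshold of 6000 or with quantile normalization and to 36.4% without rod-rich cells. *Chrna4* was at 17.2% with any probe set or with quantile normalization, *Chrna3* at 20.7% at a threshold of 1500, and *Chrnb4* at 3.45% with quantile normalization. Without rod-rich cells *Chrna3* was at 9.09%, *Chrna5* at 9.09% and *Chrm1* at 18.2%.

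The counts of receptor genes called between classes were small and moved. The share of all genes called under these settings is not given here, so these moves say nothing about receptor genes in particular. Between DS and alpha cells the count was 2 with no floor, 1 with quantile normalization, 1 without rod-rich cells, and 0 to 1 when each cell was left out. Between ON-OFF DS and ON DS cells it was 0 with a floor of 1500, with quantile normalization or with the mean of all probe sets, 2 without rod-rich cells, and 0 to 1 when each cell was left out. Between ON alpha and OFF alpha cells it was 2 without rod-rich cells, which left 1 ON alpha and 2 OFF T alpha cells and so no spread in 1 arm, and 0 to 2 when each cell was left out. Between OFF T alpha and OFF S alpha cells it was 1 with a floor of 1500, with quantile normalization or with the mean of all probe sets, 4 with no floor, and 1 to 2 when each cell was left out. It had no value without rod-rich cells, since no OFF S alpha cell was left. Directions turned for *Chrna7* between the DS subtypes without rod-rich cells (-1.45), and for *Chrnb2* between the OFF alpha subtypes, whose difference ran from -0.70 (without OFF S alpha 16 or OFF S alpha 18) through -0.35 (without OFF T alpha 19) to 6.39 when each cell was left out. The cause was not tested. Genes detected in OFF T alpha cells alone numbered 2 at a threshold of 1500 and 3 at 6000 or with quantile normalization. Of 269 correlations under other settings, 54 moved and 0 changed sign. No paired analysis was possible because no test was made and the labels pair no cells.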
